A study of Mus musculus with 11 samples.

Results

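H3K27me3 that was found in cap mesenchyme, and in neither ureteric epithelium nor embryonic stem cells, covered 835 regions of the mouse genome. They were the peaks of at least 500 bp in the cap mesenchyme H3K27me3 list, on chromosomes 1 to 19 and X, that shared no base with an H3K27me3 peak of either other population. The cap mesenchyme list held 108394 peaks, of which 5735 were that wide on those chromosomes. Of the 4900 not taken, 2106 overlapped a ureteric peak only, 233 a stem cell peak only and 2561 both. The members were chosen by the positions of the H3K27me3 peaks in these 3 lists and by their width, so their absence from the other H3K27me3 lists is a description and not a finding.

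The series profiled H3K4me3 and H3K27me3 by native chromatin precipitation after micrococcal nuclease digestion in 3 populations, and RNA in a pair of tissues. Cap mesenchyme was sorted as Cited1-RFP+ cells at E18.5 from Cited1nuc-TagRFP-T mice, a line of C57BL/6 and DBA origin kept on C57BL/6J. Ureteric epithelium was taken as Hoxb7-GFP+ cells at E15.5 from Hoxb7myr- Venus/+ mice, of C57BL/6J and CBA/J origin on C57BL/6J, and the stem cells were wild-type E14 cells of strain 129/Ola at passage 15. RNA came from wild-type C57BL/6 metanephric mesenchyme and ureteric epithelium dissected by hand at E11.5, so it is earlier than the chromatin and was not taken from sorted cells. The 2 reporters limit the sorted populations as models, since Cited1 marks uninduced progenitors and Hoxb7 the whole ureteric tree. Each group held 1 sample, so there is no replicate check, no SD and no p-value anywhere below. Intervals on shares are 95% exact binomial (Clopper-Pearson) intervals over regions, cover counting error only and say nothing of variation between animals. Age, strain and population differ together and cannot be told apart.

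H3K27me3 is the trimethyl mark that Polycomb repressive complex 2 places on histone H3, and it is found over genes that a cell type keeps silent. H3K4me3 marks promoters that are active or able to become so, and the overlap of both is called bivalent. Cap mesenchyme holds the progenitors of the nephron, which lie against the tips of the ureteric epithelium and turn into epithelium when they differentiate. A sorted population is a mixture, so both marks on a region need not lie in the same cell.

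The sequences of 4 promoters that members covered are given first, because there the ends of the deposited peaks can be placed on known bases. Those ends were set by peak calling and do not show which single bases carry the mark. RefSeq promoter windows (GRCm38.p6) run from 250 bases before a start to 50 after it, and 16 windows of 14 genes had bases in a member. Each is written 5′ to 3′ on the strand of its gene, with the bases inside the member in capitals. Cldn3 (chr5:134985964-134986263, plus strand) and Ocln (chr13:100552669-100552968, minus strand) encode tight junction proteins. Kcnh8 (chr17:52602459-52602758, plus strand) encodes a potassium channel and Elavl2 (chr4:91372020-91372319, minus strand) a neuronal RNA-binding protein.
Cldn3 promoter: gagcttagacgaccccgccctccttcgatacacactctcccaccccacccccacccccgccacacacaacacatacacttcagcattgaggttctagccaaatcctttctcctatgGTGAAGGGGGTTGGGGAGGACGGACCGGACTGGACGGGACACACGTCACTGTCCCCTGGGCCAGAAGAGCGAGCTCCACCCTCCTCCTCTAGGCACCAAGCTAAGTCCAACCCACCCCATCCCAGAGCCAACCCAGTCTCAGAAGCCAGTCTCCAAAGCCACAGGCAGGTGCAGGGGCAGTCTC
Ocln promoter: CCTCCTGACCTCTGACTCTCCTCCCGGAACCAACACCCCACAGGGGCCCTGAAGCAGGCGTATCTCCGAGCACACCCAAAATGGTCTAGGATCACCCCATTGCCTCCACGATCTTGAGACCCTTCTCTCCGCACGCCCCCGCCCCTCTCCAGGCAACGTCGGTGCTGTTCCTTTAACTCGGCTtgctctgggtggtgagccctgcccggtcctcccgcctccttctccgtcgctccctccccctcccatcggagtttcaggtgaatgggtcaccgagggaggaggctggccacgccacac
Kcnh8 promoter: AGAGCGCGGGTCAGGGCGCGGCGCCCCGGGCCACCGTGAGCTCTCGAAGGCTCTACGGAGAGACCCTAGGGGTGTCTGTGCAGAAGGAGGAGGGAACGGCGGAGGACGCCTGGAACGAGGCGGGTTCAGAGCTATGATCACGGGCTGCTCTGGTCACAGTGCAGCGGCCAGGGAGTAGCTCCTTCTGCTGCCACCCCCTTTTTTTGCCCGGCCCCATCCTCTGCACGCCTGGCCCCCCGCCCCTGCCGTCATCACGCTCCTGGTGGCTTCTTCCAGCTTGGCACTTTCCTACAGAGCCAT
Elavl2 promoter: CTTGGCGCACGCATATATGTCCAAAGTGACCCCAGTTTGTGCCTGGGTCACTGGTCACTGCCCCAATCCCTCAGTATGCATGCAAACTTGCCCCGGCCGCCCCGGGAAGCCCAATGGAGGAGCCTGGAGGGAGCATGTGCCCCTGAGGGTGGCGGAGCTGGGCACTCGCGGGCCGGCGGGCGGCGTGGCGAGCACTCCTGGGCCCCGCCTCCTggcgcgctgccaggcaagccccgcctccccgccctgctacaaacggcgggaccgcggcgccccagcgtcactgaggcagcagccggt
The member covered 184 of the 300 bases at Cldn3, 183 at Ocln, 213 at Elavl2 and the whole window at Kcnh8. The E-box that the repressors of the Snail and Zeb families are known to bind, CAGGTG, was searched on both strands, where its reverse complement is CACCTG. It occurred in the windows of Cldn3 and Ocln and in neither of the others, but these 4 promoters were picked by hand. At Cldn3 it began at base 282, inside the member, and at Ocln at base 258, outside the member. Of the 16 windows 5 held it (31.2%), against 20.3% of all 32619 windows of that length. Beside Cldn3 and Ocln they were those of Sprr2a3, Gm52688 and D230030E09Rik. Of windows without bases in a member, that of Spint1 held 0 copies, that of Sfn 1 and a second of Ocln 2. The 16 include overlapping windows of Elavl2, so that promoter counts more than once here and in the GC median below. A match of these letters is a description and not a site. GC content was 60.7% at Cldn3, 64.0% at Ocln, 66.0% at Kcnh8 and 70.3% at Elavl2, and its median was 60.0% over the 16 windows against 53.0% over all windows.

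Members also held 3 of the 1005 microRNA hairpins in the RefSeq table (0.299%), in 2 places. The mature microRNAs are shown because theirs are the only hairpins of the table that a member touched, with the seed, bases 2 to 8, in capitals.
mmu-miR-219a-5p: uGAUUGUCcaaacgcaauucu
mmu-miR-219b-5p: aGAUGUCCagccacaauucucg
mmu-miR-219b-3p: aGAAUUGCguuuggacaaucagu
mmu-miR-193a-5p: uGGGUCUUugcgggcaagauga
mmu-miR-193a-3p: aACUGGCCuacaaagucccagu
No 2 of these 5 share a seed. Mir219a-2 and Mir219b are read from opposite strands of one stretch, and their hairpins lay in a member of 810 bp (chr2:29845037-29845846) that was 92153 bp from the nearest ureteric H3K27me3 peak and had H3K4me3 in cap mesenchyme and stem cells but not in ureteric epithelium. The outer 5′ end of Cercam also lay in that member. miR-219 is known for its part in the maturation of oligodendrocytes. Mir193a lay in a member of 684 bp (chr11:79711713-79712396) with H3K4me3 in all 3 populations, 30466 bp from the nearest ureteric and 1104 bp from the nearest stem cell H3K27me3 peak.

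The members were narrower and scored lower than the other peaks of 500 bp or more, although 791 of the 835 scored at or above the median of the whole cap mesenchyme list. Their widths ran from 500 to 4985 bp with a median of 590 bp, against 641.5 bp for peaks shared with ureteric epithelium only. Together they covered 559.7 kb. Scores, the authors' own caller value, which serves here only to rank peaks within the list, ran from 40.5 to 1099.3 with a median of 119, and 67 members (8.02%) reached the median of the other wide peaks. Only 52 members were 1000 bp or wider and 6 were 2000 bp or wider, while 269 were under 550 bp. On the other side of the limit, 535 unshared peaks were under 500 bp and at least 450 bp wide, and 63187 in all were narrower than 500 bp. The 5 narrowest members listed, all of 500 bp, had scores from 87.52 to 139.65, and the 5 widest unshared peaks outside, 1 bp narrower, from 70.82 to 163.24. The members nearest to a ureteric peak stopped 2 to 9 bp short of it, and 42 had one within 50 bp. The excluded peaks nearest to the limit shared 1 to 3 bp with a ureteric peak, and 50 shared under 50 bp with one and nothing with stem cells.

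The other H3K27me3 lists differ in length, with 144362 ureteric peaks over 54.7 Mb and 12879 stem cell peaks over 13.5 Mb, so gaps to them are not on one scale. The median gap to a ureteric peak was 968 bp, and that to a stem cell peak was 94780 bp. A ureteric peak lay within 1 kb of 426 members (51.0%), within 5 kb of 684 (81.9%) and within 10 kb of 721 (86.3%). The narrower unshared peaks were placed alike, with 47.0% within 1 kb of a ureteric peak. Only 9.17% of the chromosomes' span lay that close to one. A stem cell peak lay within 1 kb of 47 members (5.63%), and 1.11% of the span lay that close to one. For 95 members neither list had a peak within 10 kb. Most members stood among other H3K27me3 of their own population, as 660 (79.0%) had another cap mesenchyme peak within 1 kb and 288 (34.5%) had one there that was shared with ureteric epithelium or stem cells.

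**Figure D1:**
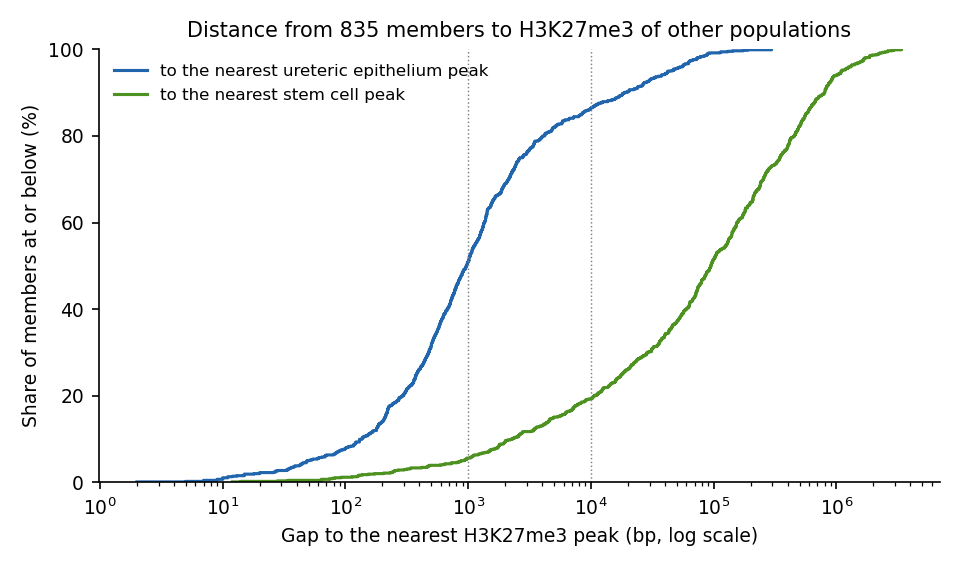
Cumulative share of the 835 members (y axis, %) against the gap to the nearest H3K27me3 peak of ureteric epithelium (blue) or stem cells (green), in bp on a log scale, with dotted lines at 1 and 10 kb. The ureteric curve passes 51.0% at 1 kb and 86.3% at 10 kb, and the stem cell curve, drawn from a list of 12879 peaks against 144362, passes 5.63% and 19.3%.

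Most members lay away from gene starts and carried no H3K4me3. A start of a protein-coding or long noncoding gene lay within 1 kb of 48 members (5.75%, interval 4.27 to 7.55). The share was 25.6% of the 4900 other wide peaks and 22.7% of all 5735. Another 320 members (38.3%) lay elsewhere in a gene and 467 (55.9%) between genes. For a gene in the RefSeq promoter table only the starts given there were used. A member on another 5′ end of such a gene counted as elsewhere, as at Cercam and Slc32a1. Peaks shared with ureteric epithelium only were the most alike, with 11.1% at a start (9.76 to 12.5) and 54.2% between genes. Peaks shared with stem cells only had 39.1% at a start, and those shared with both had 36.2%.

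H3K4me3 of cap mesenchyme touched 73 members (8.74%, interval 6.92 to 10.9), against 37.0% of the other wide peaks and 32.9% of all 5735. H3K4me3 of ureteric epithelium touched 70 members (8.38%, 6.59 to 10.5), against 23.8% of the others and 21.6% of all. H3K4me3 of stem cells touched 122 members (14.6%, 12.3 to 17.2), against 52.7% of the others and 47.2% of all. No H3K4me3 list reached 679 members (81.3%), against 49.2% of all 5735 peaks. All 3 lists reached 42 members (5.03%, against 17.5% of all), and stem cells alone 63 (7.54%, against 14.7%). Cap mesenchyme without ureteric epithelium reached 23 (2.75%, against 14.5%). Ureteric epithelium without cap mesenchyme reached 20, 2.40% of the members (1.47 to 3.68), against 3.21% of all 5735 peaks. Peaks shared with ureteric epithelium only were again the most alike, with 66.3% reached by no list. Their shares were 17.0% for cap mesenchyme, 12.3% for ureteric epithelium and 29.4% for stem cells. The members are narrower than the other wide peaks, and shares at equal width were not compared. Among the 52 members of 1000 bp or more, 23.1% touched H3K4me3 of cap mesenchyme, 17.3% that of ureteric epithelium and 28.8% that of stem cells. The 95 members more than 10 kb from both other H3K27me3 lists had a median width of 606 bp. Their shares were 17.9%, 11.6% and 21.1% in that order. The part of width was not tested.

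**Figure D2:**
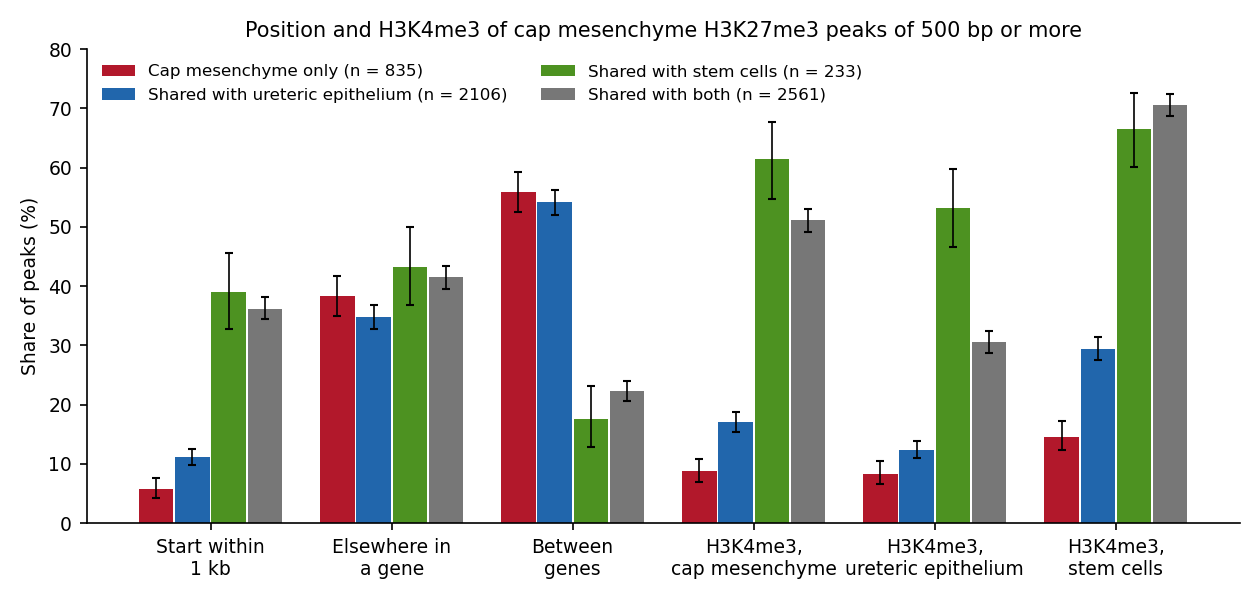
Share of peaks (y axis, %) at a gene start, elsewhere in a gene or between genes, and touching H3K4me3 of each population, for the 835 members (red) and for peaks shared with ureteric epithelium (2106, blue), with stem cells (233, green) or with both (2561, grey). Bars are shares and whiskers 95% exact binomial intervals; the members have the lowest bar at starts (5.75%) and for each H3K4me3 list (8.74%, 8.38% and 14.6%).

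The X chromosome held 36 members, 4.31% of all (interval 3.04 to 5.92), against 2.65% of the other wide peaks and 9.34% of all cap mesenchyme H3K27me3 peaks whatever their width. Peaks shared with ureteric epithelium only were alike, with 4.84% on X (3.97 to 5.85). The share was 0.429% for peaks shared with stem cells only and 1.05% for those shared with both. The labels do not give the sexes of the animals. The widest pair of members also lay there, 4985 bp and 4093 bp (chrX:170002851-170007835 and chrX:170013244-170017336), 12052 and 22445 bp from Mid1, the gene that spans the boundary of the pseudoautosomal region in laboratory mice. Their scores were 121.34 and 207.16, against a median of 119 over the members.

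Members came in runs. With gaps of up to 20 kb, 88 runs of 2 or more held 273 members (32.7%), and 562 stood alone. The longest run had 21 members with 24.2 kb in all and reached from the neighbourhood of Barhl1, a homeobox gene of the developing nervous system, into the body of Cfap77, a gene of cilia (chr2:28928432-28979989). H3K27me3 covered 75.4% of that stretch in cap mesenchyme and 8.05% in ureteric epithelium, and stem cells had no peak in it. Members set the ends of a run and by the rule hold no H3K27me3 of the other lists. Part of such a contrast within a run is therefore fixed by the selection. It held the member with the highest score, 1099.34 over 2851 bp. Cfap77 RNA was at 0.134 FPKM in metanephric mesenchyme and 0.102 FPKM in ureteric epithelium, so both tissues were near 0.

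Prdm16, which encodes a zinc finger regulator of transcription, held the most members of any gene. Its body contained 15, most of them in runs of 6, 4 and 4. Ureteric epithelium and stem cells had no H3K27me3 peak within those runs, which over the members themselves follows from the rule. Over the gene and 5 kb on each side, cap mesenchyme H3K27me3 covered 15.1%, while the ureteric list covered 1.53% and the stem cell list 2.82%. Prdm16 RNA was at 1.28 FPKM in metanephric mesenchyme and 13.4 FPKM in ureteric epithelium, a log2 difference of -2.66. Of the 95 members more than 10 kb from ureteric and stem cell H3K27me3, 13 were at or nearest to Prdm16.

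Of 28 ureteric and collecting duct genes, 3 held members in the gene body, Gata3, Tfap2a and Tfap2b, and none had one at the start. Over all genes 0.775% held one in the body. Gata3, a zinc finger factor needed for ureteric bud outgrowth, held 4 members within chr2:9867964-9872022. Cap mesenchyme H3K27me3 covered 88.3% of that stretch and neither other list had a peak there. Members made up 2.7 of its 4.1 kb, and over them the absence follows from the rule. All 4 had H3K4me3 in ureteric epithelium and none had it in cap mesenchyme. Gata3 RNA was at 1.51 FPKM in metanephric mesenchyme and 95.7 FPKM in ureteric epithelium (log2 difference -5.27). Tfap2a and Tfap2b, AP-2 factors of ureteric epithelium, held 5 members each. Their members differed from those of Gata3, as ureteric H3K4me3 touched 1 of the 5 at Tfap2a and 0 of the 5 at Tfap2b. H3K4me3 of cap mesenchyme touched 0 at both. Over Tfap2a and its 5 kb flanks, cap mesenchyme H3K27me3 covered 88.2%, against 60.1% for that of ureteric epithelium and 67.0% for that of stem cells, and over Tfap2b the values were 78.4%, 39.1% and 44.3% in that order. Tfap2a RNA was at 0.107 FPKM in metanephric mesenchyme and 121.0 FPKM in ureteric epithelium, and Tfap2b RNA at 0.393 and 25.1 FPKM in the same order. The deposited ureteric interval of the most abundant Tfap2a transcript ran from 0 to 184.0 FPKM, so it was not apart from that of metanephric mesenchyme. For Tfap2b it ran from 8.08 to 12.6 FPKM and was apart. At these genes the starts had H3K27me3 in all 3 populations, and the members lay elsewhere in the gene.

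**Figure D3:**
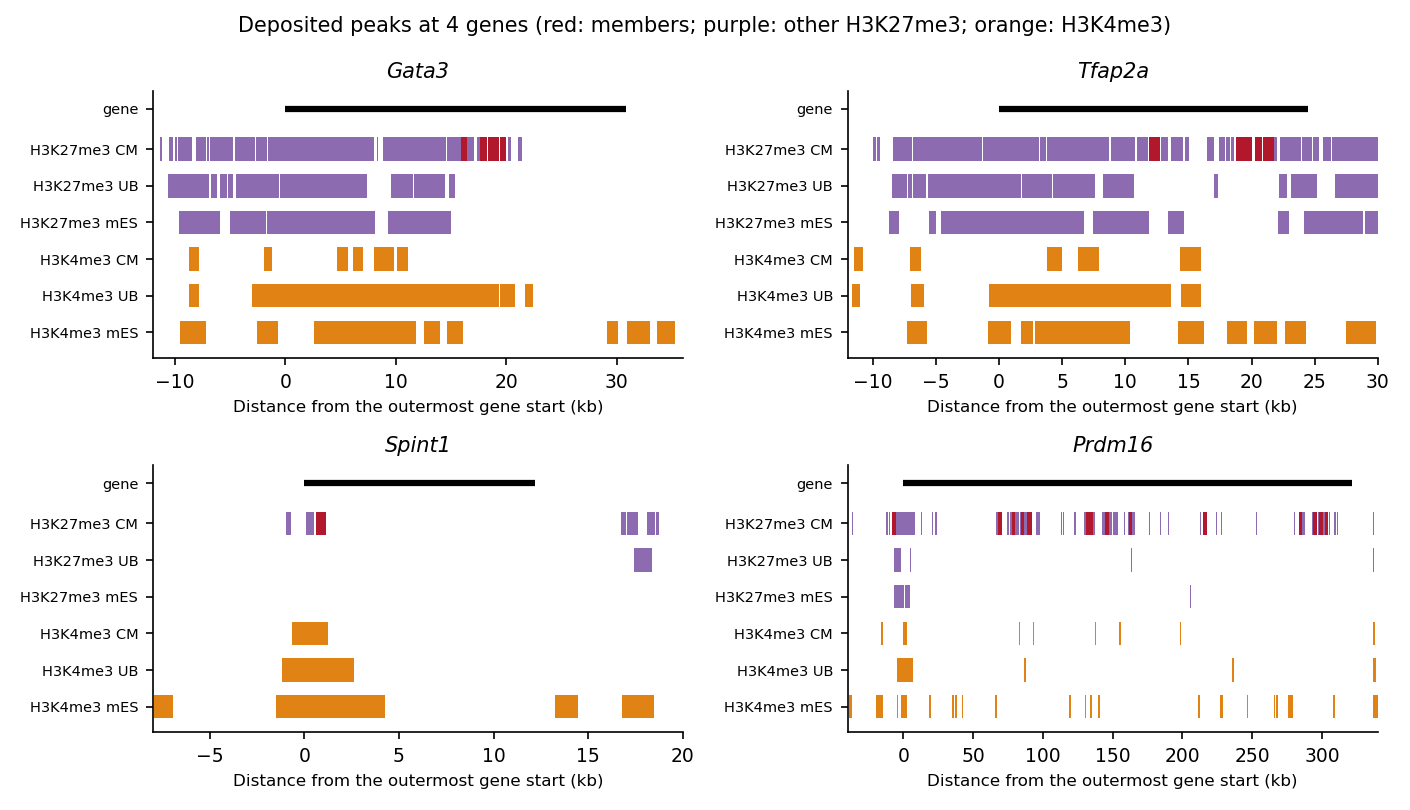
Deposited peaks of H3K27me3 and H3K4me3 in cap mesenchyme (CM), ureteric epithelium (UB) and stem cells (mES) at Gata3, Tfap2a, Spint1 and Prdm16, against distance from the outermost gene start (x axis, kb). Members are red, other H3K27me3 purple and H3K4me3 orange, and the black bar is the gene. Peaks too thin to see at Prdm16 are drawn wider than they are. The 4 Gata3 members lie where ureteric H3K27me3 is missing, as the rule requires, and where ureteric H3K4me3 is present. Ureteric H3K4me3 touches 1 of the 5 Tfap2a members and 0 of the 15 in the body of Prdm16.

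Other long runs lay near Tbx4, a T-box factor of limb and lung (5 members, best score 901.37), at Scn10a, a sodium channel of sensory neurons (7 members), and near Foxn3 (7 members). RNA of Scn10a was at 0.00777 FPKM in metanephric mesenchyme and 0.0105 FPKM in ureteric epithelium. Tbx4 RNA was at 0.0108 FPKM in metanephric mesenchyme and listed at 0 in ureteric epithelium. Smoc1, which encodes a secreted matrix protein, held 7 members and was at 1.71 FPKM in metanephric mesenchyme and 0.241 FPKM in ureteric epithelium. Bcas3 held 5 and was at 3.59 and 4.51 FPKM in the same order, so members inside a gene went with lower, higher and near-equal RNA.

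A member lay within 1 kb of a start of 49 genes, 0.143% of the 34328 genes with a position, 30 protein-coding and 19 long noncoding. Of these start windows 33 held no ureteric H3K27me3, 39 no stem cell H3K27me3 and 29 neither. The other 20 had a peak of another population elsewhere in the window, beside the member. Cap mesenchyme H3K4me3 was in the window of 35 genes, that of ureteric epithelium in 26, that of stem cells in 36, all 3 in 26 and none in 12. Over all 34328 genes, H3K4me3 at the start was found for 51.5% in the cap mesenchyme list, 47.6% in the ureteric list and 57.0% in the stem cell list. H3K27me3 was found there for 7.39%, 10.2% and 10.3% in that order.

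Epithelial adhesion genes led the group in RNA. Cdh1, which encodes E-cadherin, the adhesion protein of epithelia, had 2 members at its start, of 555 and 944 bp (chr8:106603151-106603705 and chr8:106603796-106604739). Its RNA was at 0.0188 FPKM in metanephric mesenchyme and 72.2 FPKM in ureteric epithelium, a log2(FPKM + 1) difference of -6.17. Cldn3 RNA was at 0.0920 and 59.8 FPKM in the same order (-5.80), and Ocln RNA at 0.0752 and 43.7 FPKM (-5.38). All 3 were near 0 in metanephric mesenchyme. In bulk tissue fewer cells of a type and less RNA per cell cannot be told apart.

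St14 encodes matriptase, a membrane protease of epithelia, and Spint1 encodes the inhibitor that binds it. Both had a member at the start, of 506 and 536 bp. St14 RNA was at 0.0103 FPKM in metanephric mesenchyme and 23.9 FPKM in ureteric epithelium (-4.62), and Spint1 RNA at 0.0614 and 22.1 FPKM (-4.45). Ripk4, a kinase needed for epidermal differentiation, was at 0.0316 and 7.43 FPKM (-3.03). Rtn4rl1, a relative of the Nogo receptor, was at 0.0325 and 6.89 FPKM (-2.93), with a member of 1049 bp across its start. At all 7 of these genes the member touched H3K4me3 of cap mesenchyme, of ureteric epithelium and of stem cells.

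These 7 were the genes at least 4-fold lower in metanephric mesenchyme, called where log2(FPKM + 1) differed by 2 or more and the higher tissue reached 2 FPKM. Of all 11563 genes at 1 FPKM or more in either library, 4.19% were called lower and 1.94% higher, and no gene with a member at its start was called higher. After both libraries were rescaled to a median difference of 0 these shares were 2.77% and 3.02%, and the members' genes still gave 7 lower and 0 higher. Of the 49, 40 had an RNA value and 15 reached 1 FPKM. The filter passes a gene through its higher tissue, so the other 25 bear on the count too: over all 40 the median difference was -0.03, with 21 below 0, 7 above 0 and 12 listed at 0 in both tissues. The median over the 15 was -1.70, against -0.46 over all genes at that level. With members of 1000 bp or more only, 8 genes had one at the start, and only Nfib, Tcf15 and Rtn4rl1 of them reached 1 FPKM. The median was then the value of Nfib, 0.62, and 1 gene, Rtn4rl1, was called lower. With no ureteric or stem cell H3K27me3 within 1 kb of the member, 2 were called lower, Spint1 and Rtn4rl1. In the authors' deposited table the intervals of the most abundant transcript did not overlap between tissues at any of the 7. For St14 they ran from 0 to 0.0517 FPKM in metanephric mesenchyme and from 3.51 to 24.7 FPKM in ureteric epithelium. These intervals describe 1 library each and are no replicate check.

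**Figure D4:**
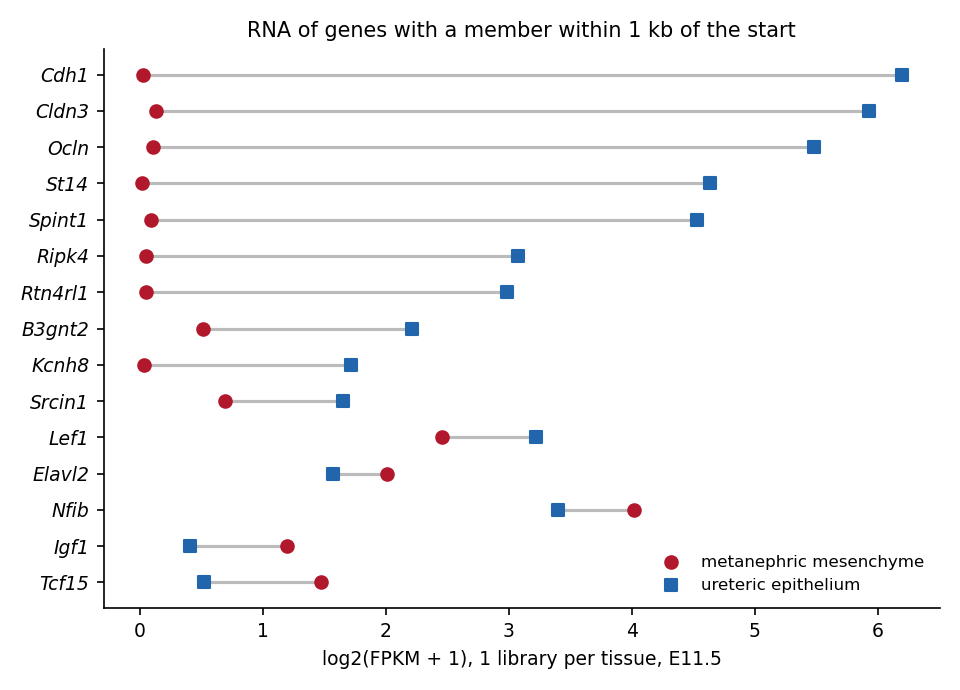
RNA as log2(FPKM + 1) (x axis) of the 15 genes with a member at the start that reached 1 FPKM, in metanephric mesenchyme (red circles) and ureteric epithelium (blue squares), 1 library each at E11.5. Genes are ordered by the difference: Cdh1 at the top has -6.17 and Tcf15 at the bottom 0.96.

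Genes below the 4-fold call were spread to both sides. Kcnh8 was at 0.0239 FPKM in metanephric mesenchyme and 2.28 FPKM in ureteric epithelium, B3gnt2, a glycosyltransferase, at 0.424 and 3.62 FPKM, and Srcin1, a regulator of SRC kinase, at 0.612 and 2.14 FPKM. Lef1, a nuclear partner of beta-catenin in Wnt signalling, was at 4.48 and 8.33 FPKM, and Elavl2 at 3.03 and 1.96 FPKM. The transcription factors Nfib (15.2 FPKM in metanephric mesenchyme and 9.54 FPKM in ureteric epithelium, log2 difference 0.62) and Tcf15 (1.78 and 0.433 FPKM, 0.96), and the growth factor Igf1 (1.29 and 0.324 FPKM, 0.79), lay above 0. Nfib had the widest member at the start of any protein-coding gene, 1752 bp with a score of 665.22 (chr4:82507183-82508934), which also covers the start of the neighbouring long noncoding gene Gm11266.

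Several other genes with the widest members at the start had under 1 FPKM in both tissues. Olig1, a factor of the oligodendrocyte lineage, had a member of 1302 bp with a score of 607.44 and was listed at 0 in both tissues. The member touched H3K4me3 in cap mesenchyme and stem cells but not in ureteric epithelium. Sfn, the 14-3-3 protein of stratified epithelia, had one of 1624 bp (chr4:133600335-133601958) with H3K4me3 in all 3 populations and was at 0.111 FPKM in metanephric mesenchyme and 0.787 FPKM in ureteric epithelium. Among other wide ones, Ccdc3 (756 bp) and the cardiac calcium channel gene Ryr2 (720 bp) were under 0.3 FPKM in both tissues, the epidermal gene Sprr2a3 (832 bp) was listed at 0 in both, and Gm52787 (721 bp) had no RNA value.

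The genes differed in how far the absence from the other lists held in the whole start window. Spint1, Rtn4rl1, Sfn, B3gnt2, Kcnh8 and Srcin1 had neither ureteric nor stem cell H3K27me3 there. At Spint1 the nearest ureteric peak was 16271 bp from the member and the nearest stem cell peak 69890 bp, and at Kcnh8 they were 30790 and 767503 bp away. Cldn3, Ocln and St14 had a stem cell peak in the window, 486, 726 and 418 bp from the member, and no ureteric one. Cdh1 had a ureteric peak 323 bp from its nearer member and none of stem cells, and Ripk4 had both, at 154 and 12 bp. At Cdh1 and Ripk4 the start region was therefore marked in ureteric epithelium as well, outside the member.

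The shared peaks give a scale for the RNA values. Of genes with a peak shared with stem cells only at the start, 32 reached 1 FPKM and 17 of those were at least 4-fold lower in metanephric mesenchyme, with 0 higher and a median of -2.44 (order-statistic interval over genes -3.38 to -1.22). For peaks shared with ureteric epithelium only the counts were 10 lower and 2 higher of 34 (median -1.36), and for peaks shared with both 28 lower and 12 higher of 106 (median -1.0). The members' 7 lower and 0 higher of 15, with a median of -1.70 (-4.62 to 0.45), lay between these classes, and no difference from them was tested.

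A member overlapped the body of 266 genes, 0.775% of all, and these were long, with a median of 72.0 kb against 12.8 kb over all genes. Of the 100 that reached 1 FPKM, 22 were at least 4-fold lower in metanephric mesenchyme and 6 higher, and the median was -0.90. Over all genes at that level 4.19% were lower and 1.94% higher, with a median of -0.46. Leaving out genes that also had a member at the start, 229 genes held 16 lower and 6 higher. These 229 include genes under 1 FPKM or without an RNA value. Beside Gata3, Tfap2a, Tfap2b and Prdm16, the lower ones included Tbx3, a T-box factor (1.51 FPKM in metanephric mesenchyme and 55.5 FPKM in ureteric epithelium) and Hs3st3b1, a heparan sulfate sulfotransferase (0.474 and 21.8 FPKM). Wnt6, a Wnt ligand, was listed at 0 in metanephric mesenchyme and was at 18 FPKM in ureteric epithelium. The 6 higher ones were Ebf3, a factor of neurons and mesenchyme (10.7 FPKM in metanephric mesenchyme and 0.0594 FPKM in ureteric epithelium), the adhesion gene Chl1 (6.54 and 0.00467 FPKM), Pakap, Asic2, Stmn2 and the matrix gene Fbn1 (7.0 and 0.961 FPKM). Genes of either direction thus held a member in the body.

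By gene list, members at starts were found in 4 of 26 lists and at 6 of the 598 listed genes matched. The epithelial list had 4 of 27, Cdh1, Cldn3, St14 and Spint1, the early nephron and Wnt lists had Lef1, and the keratin and epidermis list had Sfn. Counting gene bodies, 19 listed genes had a member, among them Gata3, Tfap2a and Tfap2b of the 28 ureteric and collecting duct genes, Rbfox3, Stmn2 and Elavl4 of the 25 neuronal genes, and Wnt6 and Fzd5 of the 38 Wnt genes. No member lay at or in any of the 25 nephron progenitor genes, 39 Hox genes or 54 transcription factors of other lineages, and 17 lists had none. Over all genes 0.143% and 0.775% held one at the start or in the body, so counts of 0 in lists of this size are close to the background. Of those 54 factors, 52 had H3K27me3 of any width at the start in each of the 3 populations.

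Epithelial genes were counted with and without a member, 1 library per tissue and without a test. Of the 27 epithelial genes 24 were at least 4-fold lower and 0 higher, and among the 23 without a member at the start 20 were lower. Of the 17 with no cap mesenchyme H3K27me3 at the start, whatever its width, 14 were lower, for example Krt8 at 0.239 FPKM in metanephric mesenchyme and 84.4 FPKM in ureteric epithelium, and Cldn4 at 0.0370 and 48.9 FPKM. Cldn7, Esrp1, Esrp2 and Ovol2 had H3K27me3 at the start in both kidney populations.

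Markers of the populations were read as a check of the labels. Of 9 cap mesenchyme markers, all had H3K4me3 at the start and 0 had H3K27me3 in cap mesenchyme, while 8 had H3K4me3 and 5 had H3K27me3 in ureteric epithelium. Their summed RNA was 247 FPKM in metanephric mesenchyme and 13.1 FPKM in ureteric epithelium, but Cited1, the gene of the sorting reporter, was at 2.78 and 8.34 FPKM in that order. Of 9 ureteric markers, 8 had H3K4me3 and 6 had H3K27me3 in cap mesenchyme, 8 and 4 had them in ureteric epithelium, and their summed RNA was 15.3 FPKM in metanephric mesenchyme and 2360.1 FPKM in ureteric epithelium. Gata3 and Cdh1 are on that list and hold members. Of 6 stem cell markers, 2 had H3K4me3 in cap mesenchyme and 1 in ureteric epithelium, while stem cells had it at all 6. Markers of each kidney population thus had H3K4me3 in the other too, and the part of other cells in the members' H3K4me3 was not tested.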

How the data were processed

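Peaks and RNA of 11 mouse samples, 1 per group, were used as deposited. The authors' tools were Bowtie2 and MACS for peaks and TopHat, Cufflinks and Cuffdiff for RNA, on mm10, per the submitters' processing notes. Versions, settings, reads per list and depth are not given in the sources used here. A deposited score, the authors' caller value on an unstated scale, comes with every peak. Input libraries (3) were not used here. RNA values are the deposited FPKM of the authors' Cuffdiff table, summed per gene, without 405 transcripts whose estimate failed. Differences are log2(FPKM + 1), which understates changes of low genes.

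Overlap means 1 bp or more, and coordinates are mm10, counted from 1. Of 138486 transcripts 89.5% were paired with a gene. Starts came from the RefSeq promoter table for 26794 of 34328 genes, from a strand inferred from the order of loci for 6517, and from both ends for 1017. The inferred strand was the same for 24129 of 24129 genes where both were known. Members, gene lists and the rule for named genes were chosen with earlier results of these data known. The rule named the 12 protein-coding genes with the widest member at the start, listed genes with a member there, up to 8 genes with the lowest and highest RNA difference, the genes nearest to the 10 widest and 10 highest scoring members, and the 8 gene bodies with the most members. Other genes were chosen after their values were seen, and some genes are not reported here. The scripts used Python 3.11.15, pandas 2.3.3, numpy 2.4.6 and scipy 1.17.1, and were tested on simulated data. No test was run, since no group had replicates. Alternatives varied the width, the exclusion distance, list length, score, promoter window, H3K4me3 overlap, pseudocount, RNA filter and RNA scale.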

Additional observations from a re-analysis of the deposited data

How the results depend on the processing

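No paired analysis was possible because each group held 1 sample. The number of members was 52 at a minimum width of 1000 bp, 395 with no other peak within 1 kb, 1357 at equal list length and 1399 with only peaks scoring 50 or more in each list, which takes scores as comparable between lists. A distance of 10 kb, chosen after seeing the data, left 95. The share at a start was 13.5% at 1000 bp, 12.6% at 10 kb and 9.58% with a window of 2.5 kb each side. H3K4me3 shares at 1000 bp and at 10 kb were 23.1% and 17.9% for cap mesenchyme, 17.3% and 11.6% for ureteric epithelium, and 28.8% and 21.1% for stem cells, where H3K4me3 over at least 50% of the member gave 11.7%. The X share was 7.69% and 1.05%. Genes with a member at the start numbered 8 at 1000 bp, 22 at 1 kb, 12 at 10 kb, 96 at equal list length, 87 at a score of 50 and 81 with the wider window. Of them, 1, 2, 2, 11 and 11 were at least 4-fold lower under the first 5 of these, and 1 was higher with the wider window. The RNA median was 0.62 at 1000 bp, the only setting that turned its sign. It rested there on Nfib, Tcf15 and Rtn4rl1 alone and was the value of Nfib. The causes were not tested.

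The 4-fold counts of 7 lower and 0 higher did not change after rescaling, without the RNA filter or with protein-coding genes only, while a pseudocount of 0.1 gave 9 lower. Of 29 genes followed, 10 kept a member at 1000 bp, 17 at 1 kb, 6 at 10 kb, 28 at equal list length and 29 at a score of 50. Cdh1, Cldn3, Ocln, St14 and Ripk4 had no member at 1 kb, while Spint1, Rtn4rl1, Sfn, Kcnh8, B3gnt2 and Prdm16 kept one even at 10 kb. Of the 70 values for main results, 40 stayed close and 30 moved.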

Other observations

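Snhg14, the long host transcript of the imprinted Snurf and Snrpn region, held 12 members. In its longest run of 9 members (chr7:59717148-59776150) the best score was 73.35, and H3K27me3 covered 23.1% of the stretch in cap mesenchyme, against 37.3% in ureteric epithelium, whose 21 peaks lay between the members. Members and ureteric peaks there alternate within one marked region.

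Near Pou3f3, a POU factor of the loop of Henle and the nervous system, 3 members lay in the long noncoding gene Gm46091. The widest, 1887 bp with the second highest score of all members, 952.54, also overlapped the long noncoding gene 2900092D14Rik and touched H3K4me3 of ureteric epithelium and of neither other population. RNA of 2900092D14Rik was listed at 0 in metanephric mesenchyme and was at 9.39 FPKM in ureteric epithelium. Lhx1os, which lies beside the nephron gene Lhx1, had a member of 552 bp in its body, was listed at 0 in metanephric mesenchyme and was at 7.25 FPKM in ureteric epithelium.

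Near Igf2bp3, an RNA-binding protein of fetal tissues, 3 members lay 4254 to 6252 bp outside the gene, the strongest with a score of 642.32. Cldn14, a claudin gene, had 3 members in its body, none with another list's H3K27me3 within 10 kb, and was listed at 0 in both tissues. The share of wide peaks that were members ran from 8.33% on chromosome 19 to 21.7% on X.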
